A study of Homo sapiens with 6 samples.

Results

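The hypoxia and glycolysis genes described here are 10 genes chosen by symbol, ADM, VEGFA, BNIP3, NDRG1, SLC2A1, HK2, PDK1, LDHA, PGK1 and ENO2. The platform annotation named a probe set for 7 of the 10, and these 7 are among the 14884 genes it named in all. SLC2A1, PDK1 and ENO2 had no named probe set and were not analysed here. Each of the 7 had a single named probe set, and all 7 passed the filter on low values that left 7442 genes for testing.

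Expression was measured on 6 whole-transcript oligonucleotide arrays (Affymetrix Human Gene 2.0 ST) from RPMI8226, KMS11 and U266, 3 established lines of malignant plasma cells grown from multiple myeloma. Each line gave 1 array after transfection with a miR-10a mimic, a synthetic double-stranded copy of the microRNA, and 1 array after transfection with a scrambled control RNA, each at 100 nM and collected after 48 h. All 6 samples therefore went through transfection, and an untransfected array was not analysed here. The design text describes normoxic culture of the parental cells, and none of the 6 arrays carries a hypoxia label, so the levels below are those of cells without a stated hypoxic treatment. Levels are log2 units, so a difference of 1 unit is a doubling on the scale of the array.

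In cells short of oxygen, the hypoxia-inducible factors HIF-1 and HIF-2 escape degradation, pair with ARNT and switch on genes for glucose uptake, glycolysis, blood vessel growth and the removal of mitochondria. The same glycolytic genes are also driven in well-oxygenated tumour cells, among others by MYC, so their levels in culture need no shortage of oxygen. Control and mimic arrays read 10.83 and 10.75 for MYC in RPMI8226, and 9.14 and 9.25 in KMS11. In U266 MYC read 4.92 and 4.43. Whether MYC has a part in the levels below was not tested. In myeloma the bone marrow is itself poorly oxygenated, and VEGFA and LDHA are widely used as read-outs of this programme.

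The mimic copies MIR10A, whose mature strands are shown because they define the treatment. The labels do not say which strand the mimic carries. Both are from RefSeq (GRCh38.p14, minus strand of chromosome 17), with the seed, bases 2 to 8, in capitals, and lie at chr17:48579904-48579926 and chr17:48579864-48579885.
hsa-miR-10a-5p: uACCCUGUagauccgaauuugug
hsa-miR-10a-3p: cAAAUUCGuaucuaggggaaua

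Across the tested genes, Pearson's r was 0.992 to 0.993 within a line and 0.715 to 0.779 between lines. Of 7 plasma cell marker genes with a probe set, IRF4 and XBP1, the transcription factors that define the plasma cell state, stood at 10.26 to 10.89 and at 9.34 to 9.65 in the 6 arrays. SDC1, MZB1, CD38 and SLAMF7 differed widely between lines, with CD38 at 9.90 to 9.99 in RPMI8226 but 3.80 to 4.92 in the other lines, and POU2AF1, a B cell coactivator gene, read 4.93 to 5.14 throughout. Mean levels over the 4 named B cell markers were 4.22 to 4.69 and over the 6 T cell and myeloid markers 3.42 to 4.15, but single markers stood out in RPMI8226. There the B cell kinase gene BLK read 6.61 and 6.32, and the macrophage marker CD68 read 8.35 and 8.02, 13.1-fold above KMS11 (limma adjusted p = 9.66e-06). The KMS11 mean of CD68, 4.47, was under the filter level of 4.70, so CD68 entered the test through the other lines. Signal over background is not known at that level, and this fold compares readings on the array's scale. Of the 4 named stromal markers, the collagen-associated genes DCN and LUM stayed at 1.98 to 2.44. FN1, the fibronectin gene, read 12.84 and 12.81 for RPMI8226 against 4.69 to 6.05 in the other lines, and VIM, the vimentin gene, 9.41 to 9.62 in KMS11 and U266 against 6.13 and 6.20 in RPMI8226. The part of these markers in the differences between lines was not tested. No gene passed limma's adjusted p of 0.05 for the mimic, and 6135 of 7442 passed its F test for differences between lines (82.4%).

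The lines differed widely in BNIP3, and less in the other genes. BNIP3 read 16.7-fold higher in U266 than in KMS11, where its level was under the filter, LDHA was 2.46-fold and ADM 1.63-fold higher in U266 than in RPMI8226, HK2 was 2.39-fold higher in RPMI8226 than in U266, and VEGFA was 1.82-fold higher in KMS11 than in U266. PGK1 differed by 1.52-fold between U266 and KMS11, and NDRG1 did not pass the test. By limma's F test, 6 of the 7 genes differed between lines (85.7%), against 82.4% of all tested genes, so the share is near the background. The median distance between the highest and the lowest line was 1.23 log2 units for the 7 genes and 0.77 for all tested genes. The genes were chosen with earlier results of these data known, so both medians are given as description only. Separate cultures of a line are not mentioned in the labels. The error behind each p-value is the spread between the 2 arrays of a line that a shared mimic effect leaves. Limma draws this error toward a value common to all tested genes. It may be technical, and it also holds any mimic response that differs between lines.

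**Figure D1:**
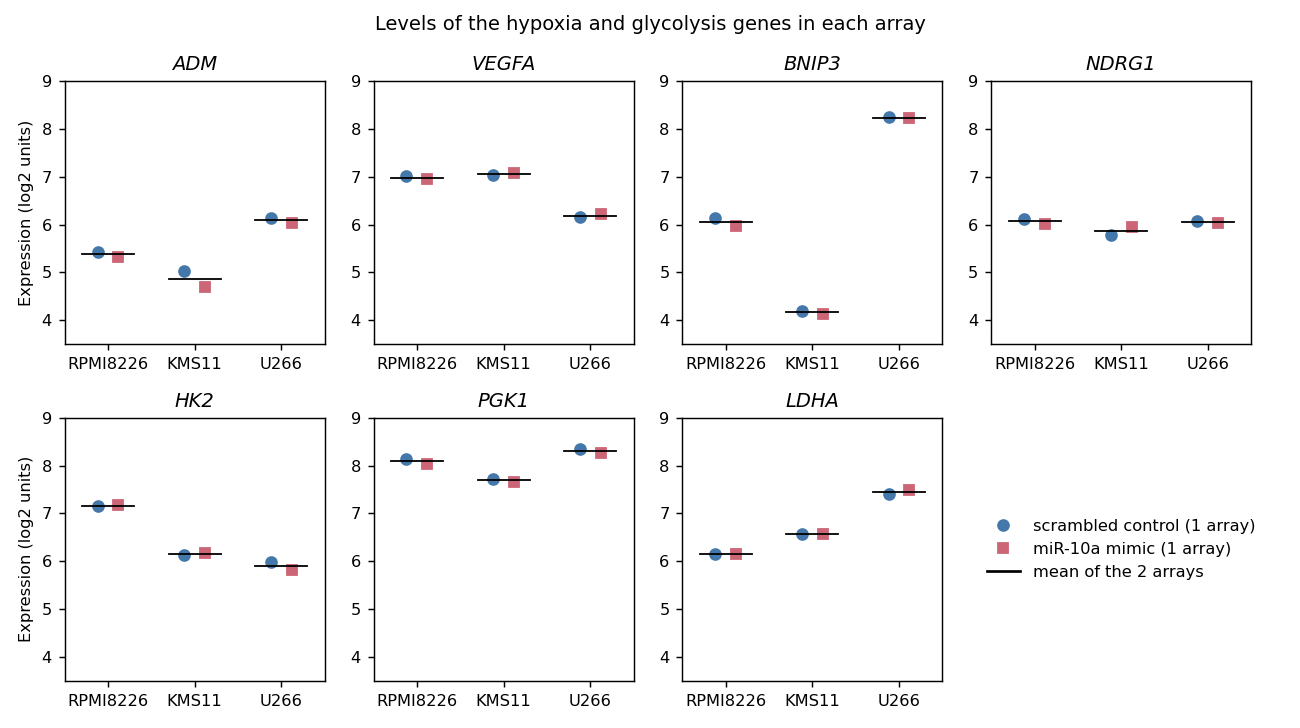
Expression of the 7 genes in log2 units in each of the 6 arrays, by line (x axis), with circles for scrambled control, squares for miR-10a mimic and a bar at the mean of the 2 arrays. The 2 arrays of a line lie within 0.32 of each other throughout, while BNIP3 runs from 4.14 in KMS11 to 8.24 in U266.

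BNIP3 encodes a mitochondrial outer membrane protein of the BCL2 family that recruits the autophagy machinery to mitochondria and is a classical HIF-1 target. Its probe set read 6.15 in the control and 5.97 in the mimic array of RPMI8226. The same pair of arrays gave 4.19 and 4.14 for KMS11, and 8.24 and 8.22 for U266. The lines formed 3 separate steps with no overlap between arrays, and within KMS11 the gene ranked only at percentiles 41.0 to 42.1 of the named genes, against 92.4 to 92.5 in U266. U266 exceeded KMS11 by 4.06 ± 0.08 (log2 difference, SE, limma adjusted p = 2.29e-06) and RPMI8226 by 2.17 ± 0.08 (4.51-fold, adjusted p = 9.23e-06). KMS11 lay below RPMI8226 by 3.71-fold (adjusted p = 1.78e-05). The distance between U266 and KMS11 exceeded that of 97.9% of the tested genes. The KMS11 mean, 4.17, was under the filter level of 4.70, so BNIP3 entered the test through the other lines. Signal over background is not known at that level, and the folds and p-values against KMS11 compare readings on the array's scale. The reference gene table holds 46 pseudogenes named after BNIP3, and how far the probe set reads transcripts of such copies was not tested.

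ADM encodes adrenomedullin, a secreted vasodilator peptide that is induced by hypoxia in most cell types. Control and mimic arrays read 5.43 and 5.33 for RPMI8226, 5.02 and 4.70 for KMS11, and 6.15 and 6.03 for U266, and pairs of values below keep this sequence. U266 was high and KMS11 low, with no overlap between lines. U266 exceeded KMS11 by 1.23 ± 0.09 (2.35-fold, limma adjusted p = 0.000125) and RPMI8226 by 0.71 ± 0.09 (adjusted p = 0.000961), and KMS11 was lower than RPMI8226 by 1.44-fold (adjusted p = 0.00358).

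PGK1 encodes phosphoglycerate kinase, the first enzyme of glycolysis to yield ATP. Its values were 8.14 and 8.04 for RPMI8226, 7.73 and 7.66 for KMS11, and 8.34 and 8.26 for U266. KMS11 was again the lowest line, but the steps were small. KMS11 lay below U266 by 1.52-fold (limma adjusted p = 0.000986) and below RPMI8226 by 1.31-fold (adjusted p = 0.00568). U266 and RPMI8226 were neighbours that did not separate at the threshold (difference 0.21, 95% interval 0.02 to 0.41, adjusted p = 0.0508, 0.0139 to 0.192 over 13 alternatives, of which 3 called it). BNIP3, ADM and PGK1 thus all had their lowest levels in KMS11, and BNIP3 and ADM their highest in U266.

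**Figure D2:**
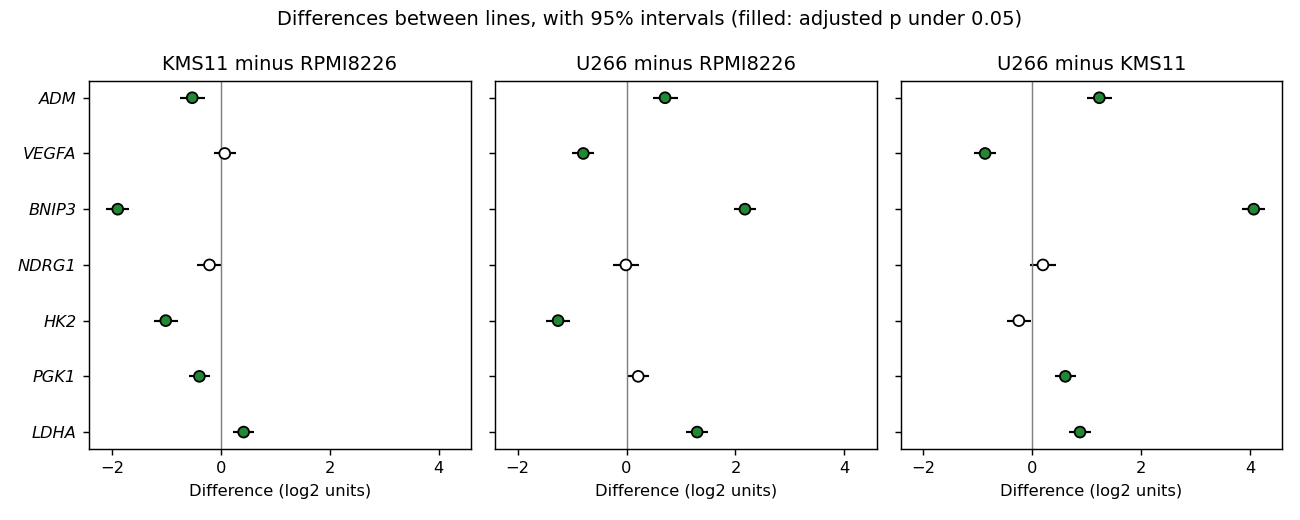
Differences between lines in log2 units (points) with 95% intervals (bars) for each of the 7 genes, in 3 panels of 1 contrast each, filled where limma's adjusted p was under 0.05. BNIP3 lies farthest from 0 in all 3 panels, at 4.06 for U266 minus KMS11, and NDRG1 is filled in none.

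The promoters of BNIP3, ADM and PGK1 are shown because these genes were called lower in KMS11 than in both other lines. NDRG1 also had its lowest mean in KMS11, but it passed no contrast and had no window. HIF binds the letters ACGTG or GCGTG, and both were searched on both strands in RefSeq's windows of 250 bases before to 50 after the start (GRCh38.p14). Matches are in capitals, and overlapping matches form 1 stretch. CACGTG, the E-box bound by MYC and other factors, contains ACGTG on both strands and is marked too. The windows are chr10:131981874-131982173 (minus strand) for BNIP3, chr11:10304823-10305122 (plus strand) for ADM and chrX:78103998-78104297 (plus strand) for PGK1.
BNIP3: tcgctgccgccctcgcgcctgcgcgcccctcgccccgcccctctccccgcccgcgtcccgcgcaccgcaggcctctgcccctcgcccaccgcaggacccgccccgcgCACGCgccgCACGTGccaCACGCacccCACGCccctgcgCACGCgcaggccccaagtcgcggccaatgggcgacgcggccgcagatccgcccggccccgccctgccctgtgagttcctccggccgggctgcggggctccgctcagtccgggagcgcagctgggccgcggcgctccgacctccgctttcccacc
ADM: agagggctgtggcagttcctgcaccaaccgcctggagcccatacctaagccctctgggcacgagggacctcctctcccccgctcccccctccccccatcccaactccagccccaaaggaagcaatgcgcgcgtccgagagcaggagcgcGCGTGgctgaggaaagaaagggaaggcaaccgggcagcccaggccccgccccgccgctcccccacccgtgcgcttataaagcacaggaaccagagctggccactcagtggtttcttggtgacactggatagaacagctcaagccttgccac
PGK1: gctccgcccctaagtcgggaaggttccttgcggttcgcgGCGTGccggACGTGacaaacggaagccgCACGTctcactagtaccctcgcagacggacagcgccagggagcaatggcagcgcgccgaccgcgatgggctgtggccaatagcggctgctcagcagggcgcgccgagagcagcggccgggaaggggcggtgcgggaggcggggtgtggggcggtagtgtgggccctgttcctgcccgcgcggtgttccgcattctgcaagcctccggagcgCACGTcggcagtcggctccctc

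The BNIP3 window held 5 such stretches, the PGK1 window 4 and the ADM window 1. Among the 35116 windows of this length, 48.4% held at least 1 stretch, 2.66% at least 4 and 0.945% at least 5. Among the 8365 windows of tested genes these shares were 62.5%, 4.39% and 1.49%. Of the other listed genes, HK2 had 3 and 4 stretches in the windows of its 2 starts, LDHA had 4 and 1, PDK1 had 0 and 2, and SLC2A1 and ENO2 had 1 each. Windows were given for 8 of the 10 genes, and not for VEGFA and NDRG1. The motif letters are rich in CG, and G and C made up 80.7% of the BNIP3 window against a median of 65.0% in the windows of tested genes. A match is a description of the letters only.

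LDHA encodes the lactate dehydrogenase subunit that favours the making of lactate from pyruvate. It read 6.15 and 6.15 for RPMI8226, 6.57 and 6.57 for KMS11, and 7.41 and 7.49 for U266. The arrays of a line nearly coincided and the lines rose from RPMI8226 to KMS11 to U266 without overlap. U266 exceeded RPMI8226 by 1.30 ± 0.08 (2.46-fold, limma adjusted p = 4.69e-05) and KMS11 by 0.88 ± 0.08 (1.84-fold, adjusted p = 0.000262), and KMS11 exceeded RPMI8226 by 0.42 ± 0.08 (adjusted p = 0.00482). LDHB, the gene of the other main subunit, which favours the use of lactate, ran in the reverse order. LDHB stood at 9.25 and 9.38 for RPMI8226, 8.48 and 8.41 for KMS11, and 7.62 and 7.65 for U266, where it was 3.21-fold lower than in RPMI8226 (adjusted p = 2.49e-05). Levels of the 2 genes come from different probe sets and cannot be set against each other, so only their orders are compared. The reference table holds 6 pseudogenes named after LDHA and 2 after PGK1.

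HK2 encodes hexokinase 2, the inducible enzyme that traps glucose in the cell as its first step of use. It stood at 7.15 and 7.17 for RPMI8226, 6.13 and 6.17 for KMS11, and 5.98 and 5.82 for U266. RPMI8226 was high and the other lines lay close together. KMS11 was lower than RPMI8226 by 2.01-fold (limma adjusted p = 0.000214) and U266 by 2.39-fold (adjusted p = 8.23e-05). U266 and KMS11 did not separate at the threshold (difference -0.25, 95% interval -0.47 to -0.02, adjusted p = 0.0547, 0.0239 to 0.356 over 12 alternatives, of which 3 called it). HK1, the constitutive hexokinase gene, was below the filter. It read 3.94 and 3.86 for RPMI8226, 4.18 and 4.39 for KMS11 and 5.56 and 5.88 for U266, 3.53-fold higher in U266 than in RPMI8226 in the fit of all named genes (adjusted p = 0.000108). In that fit 50.8% of genes passed the F test between lines. The RPMI8226 and KMS11 means of HK1, 3.90 and 4.29, were under the filter level of 4.70, where signal over background is not known.

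VEGFA encodes the main growth factor of blood vessels. It read 7.02 and 6.95 for RPMI8226, 7.04 and 7.07 for KMS11, and 6.16 and 6.22 for U266. U266 was low, the only line to stand apart. It lay below RPMI8226 by 1.73-fold (limma adjusted p = 0.000363) and below KMS11 by 1.82-fold (adjusted p = 3e-04). KMS11 and RPMI8226 did not separate (difference 0.07, 95% interval -0.13 to 0.28, adjusted p = 0.468, 0.26 to 0.893 over 13 alternatives). VEGFA therefore had its lowest level in the line with the highest levels of BNIP3, ADM and LDHA.

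NDRG1 encodes a cytosolic stress-response protein that is strongly induced by hypoxia and iron shortage. It read 6.12 and 6.01 for RPMI8226, 5.78 and 5.94 for KMS11, and 6.07 and 6.04 for U266. The U266 arrays fell between those of RPMI8226, and KMS11 lay just under both. Limma's F test gave an adjusted p of 0.148. The widest difference, KMS11 minus RPMI8226, was -0.21 with a 95% interval from -0.44 to 0.03 (adjusted p = 0.107, 0.0759 to 0.573 over 12 alternatives). The distance between its highest and lowest line, 0.21, was wider than that of only 8.26% of the tested genes. That distance was 0.34 over the control arrays alone and 0.10 over the mimic arrays alone.

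**Figure D3:**
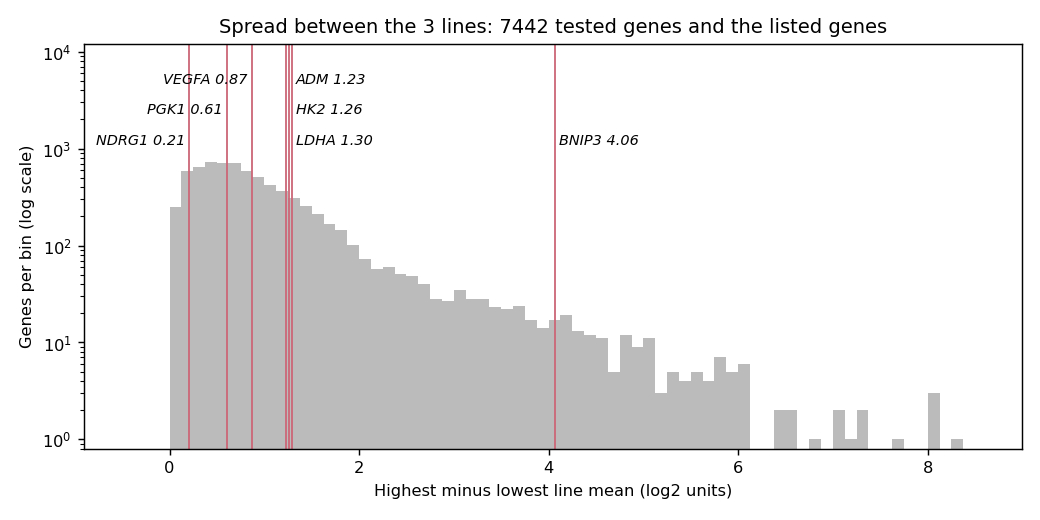
Distance between the highest and the lowest line mean in log2 units (x axis) for the 7442 tested genes (grey histogram, log count axis), with lines at the 7 listed genes and their values. NDRG1 lies at 0.21 near the left end and BNIP3 at 4.06 in the right tail, with ADM, HK2 and LDHA between 1.23 and 1.30.

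Between pairs of lines, 5 of the 7 genes passed for each contrast, where 65.0% of all tested genes passed for KMS11 against RPMI8226, 67.4% for U266 against RPMI8226 and 63.8% for U266 against KMS11. By direction, KMS11 against RPMI8226 had 1 gene higher and 4 lower, against 35.6% and 29.4% of all tested genes. U266 against RPMI8226 had 3 higher and 2 lower, against 35.1% and 32.4%, and U266 against KMS11 had 4 higher and 1 lower, against 29.8% and 34.0%. The contrasts share their arrays and are not independent. All 3 contrasts passed for 3 genes, BNIP3, ADM and LDHA, where 32.7% of all tested genes did so. U266 lay above both other lines in 3 genes, BNIP3, ADM and LDHA (18.6% of all tested genes did so), and below both in 1, VEGFA (18.9%). KMS11 lay below both in BNIP3, ADM and PGK1, again 3 genes (14.4%), and above both in 0 (19.2%). These counts include the calls of BNIP3 against KMS11. Its KMS11 mean, 4.17, was under the filter level of 4.70, and BNIP3 entered the test through the other lines. RPMI8226 lay above both in HK2 (17.6%) and below both in LDHA (21.7%). Distances of 1 log2 unit or more were seen in 4 genes, against 36.4% of all tested genes.

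Profiles over the 6 arrays, each centred on its own mean, were compared for the 3 genes with the widest line distances. Nearest to BNIP3 was SDC1, the syndecan-1 gene that serves as a plasma cell surface marker, at a Euclidean distance of 0.34 log2 units. SDC1 read 7.30 and 7.16 for RPMI8226, 5.52 and 5.72 for KMS11 and 9.49 and 9.48 for U266. IL6R, the interleukin-6 receptor gene, followed at 0.41 and DSCR8 at 0.59. Nearest to LDHA were RNGTT, an mRNA capping enzyme gene, at 0.10, FNDC3B at 0.15 and SASS6, a centriole assembly gene, at 0.15. Nearest to HK2 were SPRYD3 at 0.10, PSMD6-AS2 at 0.14 and SNHG15 at 0.15. With 3 lines and 2 arrays each, such likeness describes these arrays alone.

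Of the oxygen-sensing machinery, 5 of 11 listed genes were named and 2 tested. EGLN1, the main prolyl hydroxylase that marks HIF for destruction, stood at 5.96 and 5.87 for RPMI8226, 6.33 and 6.38 for KMS11 and 7.79 and 7.86 for U266. It was thus 3.76-fold higher in U266 than in RPMI8226 (limma adjusted p = 1.59e-05), in the order of LDHA. ARNT, the partner of the HIF alpha subunits, was highest in KMS11 at 9.73 and 9.74, against 8.06 and 8.23 for RPMI8226 and 8.97 and 8.75 for U266 (F test adjusted p = 0.00013). EPAS1, encoding HIF-2 alpha, was below the filter, at 5.85 and 5.65 for RPMI8226, 4.10 and 4.04 for KMS11 and 3.48 and 3.63 for U266. EGLN3, a hydroxylase gene strongly induced by HIF, read 2.98 to 3.23 in all 6 arrays. HIF1A itself had no named probe set.

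Among other hypoxia-induced genes, 16 of 34 listed were tested and 12 passed the F test between lines (75.0%, against 82.4% of all tested genes). Their highest level lay in U266 for 7, in RPMI8226 for 6 and in KMS11 for 3, so the list had no common order. DDIT4, an inhibitor of mTORC1, had the widest distance. It read 10.16 and 10.27 for RPMI8226, 9.63 and 9.61 for KMS11 and 7.48 and 7.65 for U266, 6.28-fold lower there than in RPMI8226 (limma adjusted p = 5.34e-06). MXI1, a MYC antagonist gene, was 3.98-fold lower in U266 than in KMS11 (adjusted p = 1.35e-05), at 4.83 and 5.00 against 6.81 and 7.01. RORA, a nuclear receptor gene, was 4.18-fold higher in U266 than in RPMI8226 (adjusted p = 9.09e-06), at 6.79 and 6.52 against 4.73 and 4.46. The RPMI8226 mean of RORA, 4.59, was under the filter level, so RORA too entered the test through the other lines. BNIP3L, the nearest relative of BNIP3 in mitochondrial removal, differed little, at 9.20 and 9.31 for RPMI8226, 9.42 and 9.55 for KMS11 and 9.71 and 9.62 for U266 (F test adjusted p = 0.0183).

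Of the other glycolytic enzymes, 6 of 24 listed genes were tested and 3 passed the F test, LDHB, PGAM1 and GPI, against 82.4% of all tested genes. PGAM1, encoding the phosphoglycerate mutase that acts after PGK1, was also lowest in KMS11, at 6.92 and 6.98 for RPMI8226, 6.26 and 6.42 for KMS11 and 8.16 and 8.20 for U266. It was 3.58-fold higher in U266 than in KMS11 (limma adjusted p = 1.98e-05). GPI, encoding glucose-6-phosphate isomerase, was 1.57-fold higher in U266 than in RPMI8226 (adjusted p = 0.000829) and differed by 0.05 between KMS11 and RPMI8226. GAPDH and TPI1 did not pass, at 5.82 to 6.06 and 4.81 to 5.03. These are low readings for enzymes that all cells express, and whether their probe sets read the main transcripts was not tested. BSG, the chaperone of lactate transporters and the 1 tested gene among 11 listed transporter genes, read 9.79 to 10.22.

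Of 12 genes for the entry of pyruvate into mitochondria, 6 were tested and 6 passed the F test, which 82.4% of all tested genes passed. PDHA1 and DLAT, subunits of the pyruvate dehydrogenase complex, were highest in RPMI8226 and lowest in U266. PDHA1 read 7.34 and 7.43 for RPMI8226, 6.73 and 6.72 for KMS11 and 5.98 and 6.04 for U266, a 2.60-fold difference between the outer lines (limma adjusted p = 4.04e-05). DLAT was 2.28-fold lower in U266 than in RPMI8226 (adjusted p = 7e-05). MPC2, a subunit of the mitochondrial pyruvate carrier, was lowest in RPMI8226, at 7.56 and 7.75, and highest in KMS11, at 8.81 and 8.80. The order of PDHA1 and DLAT was that of LDHB and the reverse of that of LDHA, as orders over 3 lines and without a test of likeness.

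**Figure D4:**
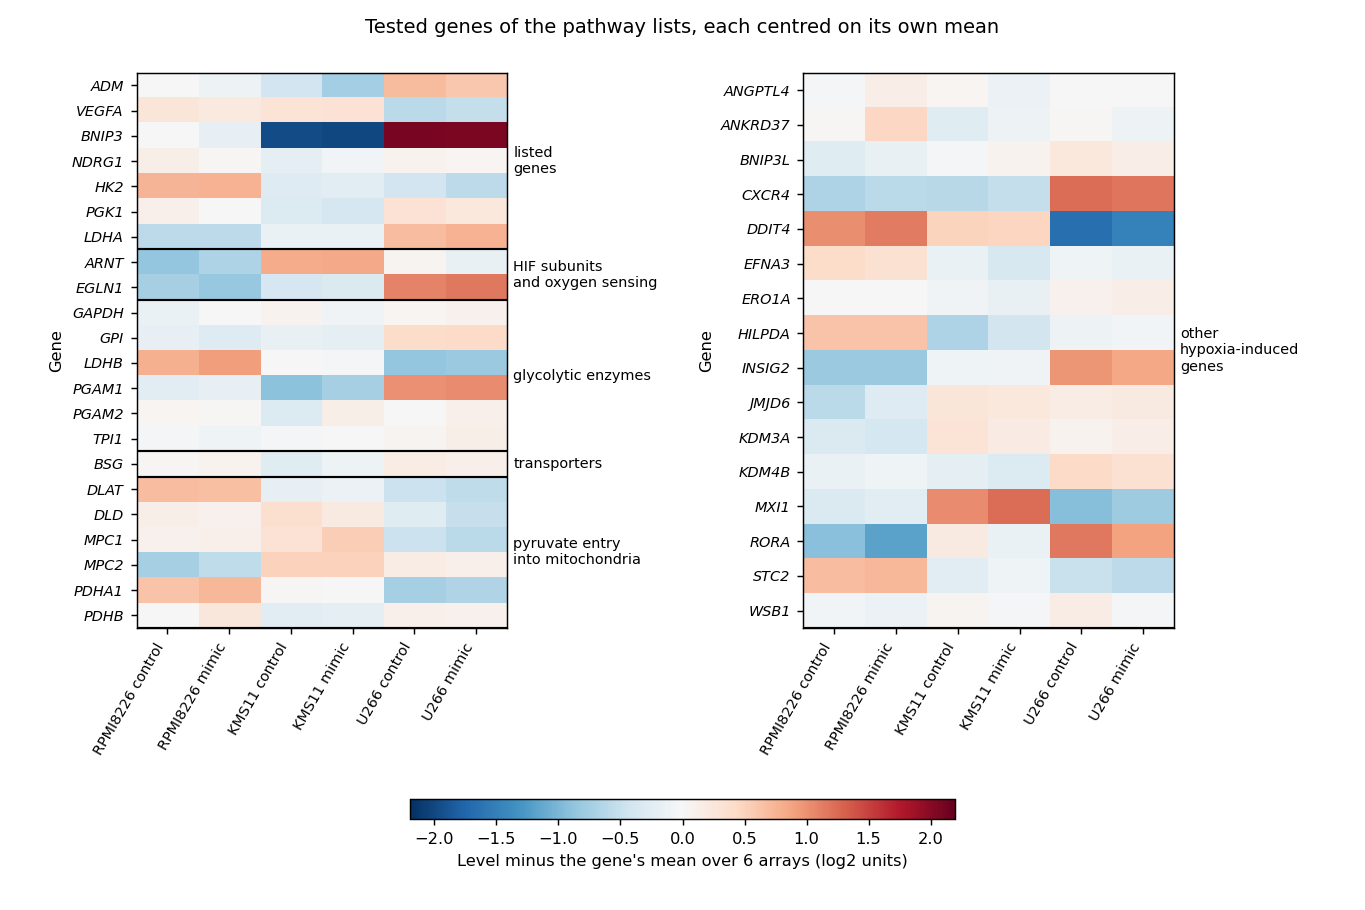
Level of each tested pathway gene minus its own mean over the 6 arrays, in log2 units (colour, red above and blue below the mean), with arrays in columns and genes grouped by list. Columns of the same line look alike, and within the lists some genes, such as LDHA and LDHB, run in reverse order over the lines.

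None of the 7 genes passed the test for a mean change with the miR-10a mimic. In limma's fit with a block for the line, 0 of 7 passed an adjusted p of 0.05 and 0 an unadjusted p of 0.05, where 0% and 5.42% of all 7442 tested genes did. The adjusted p-values of the 7 ran from 0.902 to 0.994. The median of the 7 mean changes was -0.03 log2 units, against -0.0029 for all tested genes. The 95% interval of the mean change lay inside 1.5-fold in both directions for all 7, as for 97.6% of all tested genes, and the farthest bound was 1.29-fold, for ADM. Of the 21 changes in single lines, 20 were under 0.2 log2 units in size, and no gene moved by 1.5-fold in any line, where 1.05% of all tested genes did in RPMI8226, 0.873% in KMS11 and 1.07% in U266. These single-line values have no replicate check.

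The widest mean change was that of ADM, at -0.18 ± 0.12 (log2 change, SD of 3 lines), made of -0.10 for RPMI8226, -0.32 for KMS11 and -0.12 for U266. The KMS11 mimic array read 4.70 for ADM, near the filter level, where signal over background is not known. For ADM, leaving out KMS11 gave -0.11, leaving out RPMI8226 gave -0.22 and leaving out U266 gave -0.21. Control arrays averaged 5.53 ± 0.57 and mimic arrays 5.35 ± 0.67 (SD, n = 3), and these SDs hold the differences between lines, within each of which ADM was lower with mimic. PGK1 had the most even change, -0.08 ± 0.02, with -0.10, -0.07 and -0.08 in RPMI8226, KMS11 and U266 (limma adjusted p = 0.917). BNIP3 gave -0.08 ± 0.08, made of -0.18 for RPMI8226, -0.05 for KMS11 and -0.03 for U266. These 3 genes were lower with mimic in all 3 lines, a direction that 13.8% of all tested genes shared, and none of them passed the test.

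The other 4 genes changed sign from line to line. LDHA gave 0.03 ± 0.05, made of -0.0032 for RPMI8226, 0.0040 for KMS11 and 0.08 for U266. HK2 gave 0.02 and 0.04 for RPMI8226 and KMS11 but -0.16 in U266. VEGFA gave -0.07, 0.03 and 0.06, and NDRG1 -0.11, 0.16 and -0.03, in RPMI8226, KMS11 and U266. The mimic effect of each line was also tested against that of the other 2, in a fit with 1 residual degree of freedom. No listed gene passed (smallest limma adjusted p = 0.866), nor did any of all tested genes (0%).

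**Figure D5:**
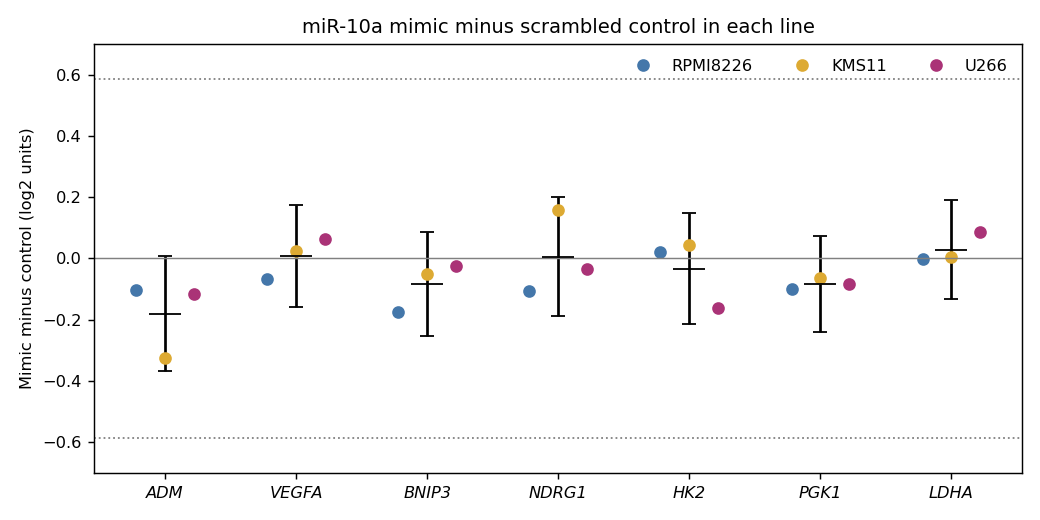
Mimic minus control in log2 units for the 7 genes, with 1 point per line, a black bar at the mean of 3 lines and whiskers for limma's 95% interval, and dotted lines at a 1.5-fold change. ADM, BNIP3 and PGK1 have all 3 points below 0, and all whiskers stay inside the dotted lines.

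In the wider pathway lists the mimic gave no call either. Of the 38 tested genes of all 6 lists, with the 7 included, 0 passed the threshold in either direction and 1 had an unadjusted p under 0.05. That gene was RORA, at -0.29 ± 0.04 (limma adjusted p = 0.889). By sign alone 23 were higher and 15 lower, with a median of 0.01. The widest mean change in each other list was 0.01 for EGLN1, 0.18 ± 0.23 for PGAM2, 0.05 ± 0.10 for BSG and -0.15 ± 0.09 for DLD, a shared subunit of mitochondrial dehydrogenases (SD of 3 lines).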

How the data were processed

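Gene expression was measured on 6 arrays, 1 for each of 3 cell lines and 2 treatments. The deposited table holds log2 values of 53617 probe sets as the authors made them. Per the submitters' processing notes the tool was Affymetrix Expression Console 1.3.0. How it corrected background, normalized and summarized, and on which genome build, is not given in the sources used here. Array medians lay between 3.61 and 3.66, and whether arrays were centred before deposit stays unknown. The table holds no detection calls, low values are uncertain, and changes of weak genes can be compressed toward 0. Precision is limited by the number of arrays.

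The platform annotation named 16098 probe sets for 14884 genes. Per gene the probe set with the highest mean was used, and genes whose mean reached the median of named genes (4.70) were tested. Groups came from the sample titles. Limma 3.58.1 under R 4.3.3 (lmFit, eBayes) was fitted with line and treatment as terms, two-sided, with Benjamini-Hochberg adjustment over 7442 genes and a threshold of 0.05. The cell line pairs the arrays (deviations correlated at 0.967 to 0.970 across genes). Script behaviour was checked on simulated data.

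The members and lists were chosen with earlier results of these data known. All 7 listed genes with a probe set are reported. From each of the 5 other lists, the 3 tested genes with the widest line distance among those past the F test and the gene with the widest mean mimic change were named, with HK1, LDHB and BNIP3L as family partners and 3 nearest profiles for the 3 widest listed genes. EPAS1, EGLN3, GAPDH and TPI1 were added after their values were seen. Alternatives changed the filter, the normalization, the probe set rule, the variance prior, the model terms and the arrays used.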

Additional observations from a re-analysis of the deposited data

How the results depend on the processing

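The mimic gave 0 calls over all genes in limma as reported (403 genes at an unadjusted p under 0.05), with no replicate block, and in each of the other alternatives run, including those without a cell line. The 7 genes kept their calls between lines except as follows. With only the upper 25% of named genes tested, 3 of the 7 genes remained and all 3 passed the F test, and the counts of called genes were 3474 for the F test, 2933 for KMS11 minus RPMI8226, 2899 for U266 minus RPMI8226 and 2852 for U266 minus KMS11, since fewer genes were tested. In the same setting 10 genes passed the test of one line's mimic effect against the other lines, none of them a listed gene, and the cause was not tested. With array medians centred, the mimic change was -0.0013 for VEGFA and -0.0026 for NDRG1, and U266 minus RPMI8226 was 0.0052 for NDRG1. Without a cell line, the mimic change ranged from -0.020 to 0.044 for VEGFA, from -0.070 to 0.062 for NDRG1 and from -0.071 to 0.031 for HK2. Without 1 array, U266 minus RPMI8226 ranged from -0.096 to 0.073 for NDRG1. These signs are of values near 0 that passed no test. PGK1 was called for U266 minus RPMI8226 with the stricter filter, centred medians or a variance trend, and HK2 for U266 minus KMS11 after quantile normalization, with centred medians or without the treatment term. Signal over background is not known for these values, and levels near those of BNIP3 in KMS11 are the least certain.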

Other observations

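Below the filter, LOX and MIR210HG had higher values with the mimic in all 3 lines. ARNT2, a listed gene of the oxygen-sensing machinery, was also below the filter and higher in each line, by 0.17 for RPMI8226, 0.07 for KMS11 and 0.19 for U266. LOX, MIR210HG and ARNT2 are not among the 7442 tested genes. Of those tested, 1972 changed in the same direction in all 3 lines, and 1027 of these were lower. Such a count for genes below the filter is not given here. LOX encodes lysyl oxidase, a collagen cross-linking enzyme, and MIR210HG is the host gene of the hypoxia-induced microRNA miR-210. For LOX the log2 change was 0.43 for RPMI8226, 0.30 for KMS11 and 0.09 for U266, averaging 0.27 ± 0.17 (SD of 3 lines), at levels from 3.35 to 4.54. MIR210HG gave 0.22, 0.43 and 0.09, averaging 0.25 ± 0.18. In the limma fit of all named genes the adjusted p was 0.949 for LOX and for MIR210HG, and 0.967 for ARNT2. LOX, MIR210HG and ARNT2 were picked after their values were seen. Of the 16 tested genes in the list of other hypoxia-induced genes, 4 changed in the same direction in all 3 lines. MXI1 was higher in each line, and RORA, WSB1 and EFNA3 were lower.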
